A study of Homo sapiens with 4 samples.

Results

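Promoter H3K27Ac peaks of MOLM13 cells are described here. MOLM13 is a human line of AML cells that carries MLL1-r. The peaks are those broad H3K27Ac peaks of the control library, on the autosomes other than chromosome 8, that reach within 1 kb of the annotated 5′ end of a protein-coding gene. The rule found 12727 such peaks among 216710 control peaks on these chromosomes and 245875 in the whole control list. Of these promoter peaks, 10993 reached the window of 1 gene and are called one-gene peaks. Another 1078 reached both genes of a head-to-head pair, in which the genes lie on opposite strands, are transcribed away from each other and have 5′ ends at most 1 kb apart. The last 656 reached several genes in other arrangements. H3K27Ac occupancy had been measured by ChIPmentation, in which chromatin is precipitated with an antibody and tagged with adapters by the Tn5 transposase. The study compared 1 library of control cells, whose label gives no treatment while the treatment protocol names a DMSO arm, with 1 library of cells exposed to 500 nM of SNDX-50469, a Menin inhibitor (MI), for 16 h. Both libraries are from the same line, which carries the MLL fusion, so neither stands for cells without it. Each condition had 1 library, so no difference between conditions has a replicate check and no p-value is given.

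Acetylation of lysine 27 of histone H3 marks active promoters and enhancers. It is laid down by the acetyltransferases p300 and CBP on the nucleosomes that flank the open DNA at a start site. Many vertebrate promoters lie in CpG islands, stretches rich in the CG dinucleotide. A smaller group, typical of strongly regulated and tissue-specific genes, has few CG dinucleotides and often a TATA box. Menin is the scaffold that tethers MLL1 and its fusion proteins (MLL-FP) to chromatin, and in AML with MLL1-r the MLL-FP keep genes such as MEIS1, HOXA9 and PBX3 expressed.

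Promoter sequences show a range of base composition among genes with these peaks. The following 5 single promoters are the 250 bases before the 5′ end on the strand of the gene, from RefSeq (GRCh38.p14), with each CG in capitals. SUMO3, which encodes a ubiquitin-like modifier, is at chr21:44818063-44818312 on the minus strand and H4C12, a histone H4 gene, at chr6:27831561-27831810 on the minus strand. MEIS1, the HOX cofactor, is at chr2:66434875-66435124 on the plus strand. ITGAM, the gene of the integrin CD11b, is at chr16:31259725-31259974 on the plus strand and IL12B, a cytokine subunit gene, at chr5:159330488-159330737 on the minus strand. They were chosen to set the promoter whose peak had the highest covered share after treatment among peaks of at least 2 kb (SUMO3) and a histone promoter beside an MLL-FP target and myeloid genes with wide peaks.
SUMO3: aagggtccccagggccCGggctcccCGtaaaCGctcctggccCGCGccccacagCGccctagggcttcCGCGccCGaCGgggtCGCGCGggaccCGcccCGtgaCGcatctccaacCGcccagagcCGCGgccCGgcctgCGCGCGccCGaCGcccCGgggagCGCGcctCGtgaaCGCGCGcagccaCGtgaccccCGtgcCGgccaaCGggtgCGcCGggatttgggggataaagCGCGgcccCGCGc
H4C12: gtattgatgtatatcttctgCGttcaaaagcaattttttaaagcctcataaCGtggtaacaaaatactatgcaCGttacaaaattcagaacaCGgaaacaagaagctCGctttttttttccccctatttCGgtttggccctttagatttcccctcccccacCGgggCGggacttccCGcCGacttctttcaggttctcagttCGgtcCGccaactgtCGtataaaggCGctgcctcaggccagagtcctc
MEIS1: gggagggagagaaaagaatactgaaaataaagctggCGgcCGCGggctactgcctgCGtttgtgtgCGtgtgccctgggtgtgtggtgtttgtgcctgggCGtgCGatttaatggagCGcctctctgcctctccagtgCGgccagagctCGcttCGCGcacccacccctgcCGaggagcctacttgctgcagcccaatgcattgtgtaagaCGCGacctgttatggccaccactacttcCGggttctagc
ITGAM: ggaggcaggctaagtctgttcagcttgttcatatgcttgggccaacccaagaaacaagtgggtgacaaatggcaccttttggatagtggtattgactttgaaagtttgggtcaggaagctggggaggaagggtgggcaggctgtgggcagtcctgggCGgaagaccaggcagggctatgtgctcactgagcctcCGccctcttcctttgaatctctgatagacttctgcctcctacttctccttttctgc
IL12B: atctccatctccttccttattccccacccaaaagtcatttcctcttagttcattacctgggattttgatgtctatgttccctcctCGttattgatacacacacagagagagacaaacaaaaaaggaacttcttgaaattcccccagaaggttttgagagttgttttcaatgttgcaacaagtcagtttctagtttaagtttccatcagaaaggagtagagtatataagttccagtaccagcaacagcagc

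These stretches held 42 CG dinucleotides in SUMO3, 14 in H4C12, 16 in MEIS1, 2 in ITGAM and 1 in IL12B. The stretches of SUMO3, MEIS1 and ITGAM lay inside the control peak described here. Those of H4C12 and IL12B lay outside it, so their CG counts are not the composition of that peak. The control peak of SUMO3 was 2195 bp wide and 100% of it was covered by a peak after SNDX-50469, and for H4C12 99.9% of a 2724 bp peak was covered. MEIS1 had a 15900 bp peak of which 18.2% was covered. ITGAM (8612 bp) and IL12B (15257 bp) had wide control peaks that shared no base with a peak of the treated library.

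The short stretches between the 5′ ends of head-to-head pairs are printed on the plus strand, from the first base after the minus-strand gene to the last base before the plus-strand gene (RefSeq, GRCh38.p14). Capitals mark matches to the GC box (GGGCGG), the CCAAT box (CCAAT), the ETS motif (CCGGAAG) and the NRF1 motif (GCGCATGC), on either strand. ELF1/WBP4 (chr13:41061387-41061508) and MED22/RPL7A (chr9:133348132-133348217) are pairs whose peak was kept. PSMA2/MRPL32 (chr7:42932175-42932375), WARS1/WDR25 (chr14:100376328-100376484) and GLB1L/STK16 (chr2:219245445-219245478) are pairs whose peak was not kept.
ELF1/WBP4: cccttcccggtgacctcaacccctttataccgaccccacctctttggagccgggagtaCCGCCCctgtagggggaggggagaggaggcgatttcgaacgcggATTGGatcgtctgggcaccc
MED22/RPL7A: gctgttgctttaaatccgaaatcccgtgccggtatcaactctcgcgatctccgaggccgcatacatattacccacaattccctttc
PSMA2/MRPL32: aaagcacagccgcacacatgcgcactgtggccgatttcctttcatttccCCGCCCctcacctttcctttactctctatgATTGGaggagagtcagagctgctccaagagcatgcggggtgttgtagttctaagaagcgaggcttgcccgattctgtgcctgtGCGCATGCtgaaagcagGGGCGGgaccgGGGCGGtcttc
WARS1/WDR25: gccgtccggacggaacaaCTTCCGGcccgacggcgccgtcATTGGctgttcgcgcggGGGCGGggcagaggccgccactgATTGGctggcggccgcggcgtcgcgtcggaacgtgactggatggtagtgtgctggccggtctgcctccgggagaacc
GLB1L/STK16: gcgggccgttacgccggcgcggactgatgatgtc

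These spacers were 122, 86, 201, 157 and 34 bases long in that order. Matches to the GC box and the CCAAT box occurred in the ELF1/WBP4, PSMA2/MRPL32 and WARS1/WDR25 spacers, 1 NRF1 match lay in PSMA2/MRPL32 and 1 ETS match in WARS1/WDR25. None of the motifs searched occurred in the MED22/RPL7A and GLB1L/STK16 spacers, so the kept and the other pairs shown here do not separate by these letters.

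The peaks of each library had been called on their own by the authors. After SNDX-50469 the list held 31111 peaks on these chromosomes, and its weakest peak had a −log10 p of 3.93, against 2.68 in the control list, so a weak peak could be listed in control that would not be listed after treatment. The part of this difference in the results below was not tested beyond the alternatives given in the closing section. Peak heights are relative to the background of each library, so only positions are compared between the lists. The fold given below for a control peak is the authors' mean enrichment over background within the control library. A control peak is called kept when 1 bp or more of it was also covered by a treated peak. Wilson 95% intervals are given for shares. They cover counting error only, and neighboring peaks are not independent. The files give no read totals, so the depth is unknown. Among lineage markers, 13 of 14 myeloid genes had a control peak within 1 kb of the 5′ end, the exception being KIT, against 5 of 7 lymphoid, 2 of 4 erythroid and 1 of 7 epithelial or other genes, beside 60.8% of all protein-coding genes. After treatment 7 of the 13 myeloid genes and 1 of the 5 lymphoid genes had a peak there, beside 49.1% of all genes with a control peak.

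Promoter peaks were wider than other H3K27Ac peaks and were found again after treatment far more often. A wide peak reaches a window more easily and also meets the 1 bp rule more easily. Both differences are thus partly set by the rules, and shares at matched width follow below. Of the 12727 promoter peaks, 5099 or 40.1% were kept (39.2 to 40.9%), beside 6.28% of all control peaks on these chromosomes and 4.18% of the 203983 peaks outside the windows (4.09 to 4.27%). The gap was smaller with both lists held to a −log10 q of at least 5, at 13.2% of promoter peaks and 6.38% outside the windows. Promoter peaks made up 5.87% of the control peaks and 16.2% of the length they covered, but 37.4% of the peaks that were kept. By length, 25.2% of the promoter peaks and 5.33% of the other peaks was covered after treatment. A kept promoter peak usually held 1 treated peak (3672 of 5099, 72.0%). The treated peaks together covered a median 35.2% of a kept peak (quartiles 18.2 and 54.9%), and in 1536 kept peaks they covered at least 50%. The reverse comparison was closer. Of the 5134 treated peaks that reached a promoter window, 97.9% shared a base with a control peak, beside 61.1% of the 25977 treated peaks elsewhere.

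The median promoter peak was 1373 bp wide (95% interval 1330 to 1408), with quartiles of 502.5 and 2958 bp and a maximum of 58720 bp. Peaks outside the windows had a median width of 325 bp, a difference partly set by the rule because a wide peak reaches a window more easily. One-gene peaks had a median of 1250 bp (1209 to 1295) and head-to-head peaks one of 1885.5 bp (1762 to 1991), with no overlap of the intervals. A peak counts as head-to-head only if it reaches both windows, so this difference is partly set by the definition. Counted per gene, the widest control peak had a median of 2361 bp for genes in pairs. For genes with no other 5′ end close by it was 1884 bp. Head-to-head peaks were rarely narrow. Only 12.1% of them were under 500 bp, against 27.1% of one-gene peaks, while similar shares were 5000 bp or more (10.9% and 11.2%). Peaks that reached several genes in another arrangement were the widest, with a median of 3061 bp and 30.8% of at least 5000 bp, and by construction a wide peak can take in more windows. Kept peaks had a median of 2978 bp and peaks that were not kept one of 673 bp. Treated peaks at the windows were narrower, with a median of 837 bp.

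The share kept by the 1 bp rule, which a wide peak meets more easily, climbed with width in promoter peaks and in the others. Among all promoter peaks it was 2.62% under 500 bp, 14.1% from 500 to below 1000 bp, 40.3% from 1000 to below 2000 bp, 70.6% from 2000 to below 5000 bp and 86.4% at 5000 bp or more. By length covered the last 2 groups were close, at 27.6 and 28.6%, and only 17.04% of the peaks of 5000 bp or more had at least 50% of their length covered, beside 21.3% of one-gene peaks from 2000 to below 5000 bp. Outside the windows the shares in the same order were 0.941, 2.69, 6.85, 18.6 and 55.7%, below the promoter peaks in each width range with intervals that do not overlap. Weighted to the widths of the promoter peaks, the share kept outside the windows was 13.96%.

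**Figure D1:**
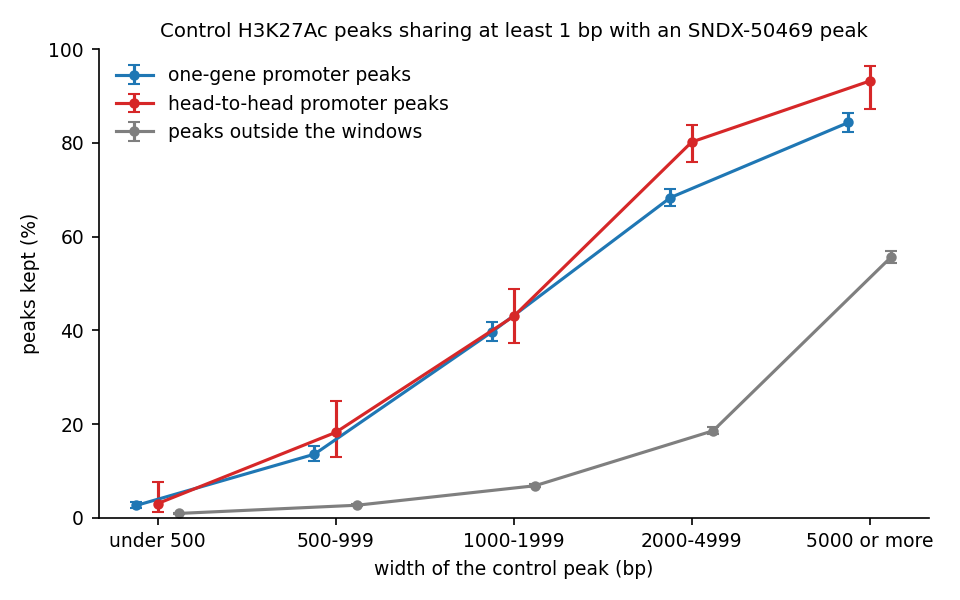
Share of control peaks that share at least 1 bp with an SNDX-50469 peak (y axis, percent), by width of the control peak in bp (x axis), for one-gene promoter peaks, head-to-head promoter peaks and peaks outside the windows. Points are shares and bars are Wilson 95% intervals. At 2000 to below 5000 bp the shares were 68.3% for one-gene, 80.2% for head-to-head and 18.6% for other peaks.

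Enrichment in the control library separated kept from other promoter peaks within each width. Among promoter peaks of 2000 to below 5000 bp, 34.5% of those in the lowest tertile of fold, 80.1% in the middle tertile and 97.0% in the highest were kept. The median folds of these tertiles were 3.94, 5.10 and 6.59, while their median widths were close, at 2875, 2947.5 and 3120 bp. Under 500 bp even the highest tertile, with a median fold of 3.51, kept 5.11%. Promoter peaks had higher folds than other peaks, with medians of 4.12 and 2.93, so both were set side by side at the same width and fold. Over all widths and folds, 4.18% of the peaks outside the windows were kept. Promoter peaks at the widths of those peaks were kept in 13.3% of cases, and at their width and fold in 6.36%. The gap was wider in some ranges. At 2000 to below 5000 bp and a fold from 5 to below 6, 88.7% of 841 promoter peaks (86.4 to 90.7%) and 53.4% of 573 other peaks (49.3 to 57.4%) were kept. The gap was smaller where enrichment was highest. At a fold of 8 or more the same width gave 99.4% against 91.1%, and at 5000 bp or more it was 99.6% against 99.01%, with overlapping intervals.

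The share kept also differed with position relative to the 5′ end. The 5′ end lay inside 6161 of the promoter peaks, whose median width was 2665 bp and of which 63.4% were kept (62.2 to 64.6%). In 4507 the nearest end of the peak was 1 to 500 bp away, with a median width of 725 bp and 22.9% kept. The 2059 peaks just inside the limit, over 500 and up to 1000 bp away, were narrow, with a median of 375 bp and 7.82% kept (6.74 to 9.06%). The 2735 peaks just outside it, over 1000 and up to 1500 bp away, had a median of 356 bp and 5.96% kept. At a matched width of 1000 to below 2000 bp, 43.2% of the peaks over the 5′ end and 41.2% of those 1 to 500 bp away were kept, with overlapping intervals, and 18.0% of those over 500 bp away. The outer part of the window thus held peaks that resembled the sites beyond it in width and in the share kept.

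Seen from the genes, the windows of 11015 of 18119 protein-coding genes (60.8%) were reached by a control peak. Of these, 5408 (49.1%) were also reached by a treated peak. Most windows with a control peak held 1 (7759), and 2966 held 2, 280 held 3 and 10 held 4. Only 63 windows were reached by a treated peak alone. These treated peaks had a median width of 164.5 bp and a −log10 q of at most 3.11, and 21 of the 63 windows were on chromosomes 5, 6 and 13, which hold 12.4% of the genes. Among them were the windows of the histone gene H3C8 (1106 bp), the netrin gene NTN3 (971 bp) and the homeobox gene HOXA7 (339 bp). H3C8 and NTN3 were picked as wide examples and HOXA7 as a HOX gene after their values were seen.

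Around the 5′ ends of the 8317 genes alone with a control peak, control coverage was highest at +200 bp, where 82.7% of the genes were covered. It was lower just upstream, at 58.2% of the genes at −150 bp, with a small shoulder of 60.8% at −400 bp. Coverage after treatment was highest at +300 bp, at 30.1% of the same genes. Treated coverage amounted to 40.1% of control coverage at the 5′ end and to 12.2% at −5000 bp. For the 1732 genes in head-to-head pairs, control coverage had a maximum on each side, 88.7% at +250 bp and 86.3% at −500 bp, with 68.1% at −100 bp between them. After treatment no such dip was seen, with 38.2% at +150 bp, 37.5% at −100 bp and 36.4% at −500 bp. Among 4987 one-gene peaks that held the 5′ end, the median reach was 931 bp upstream and 1421 bp downstream, and 65.8% reached further downstream. This share was 66.8% in kept peaks and 64.3% in the others.

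**Figure D2:**
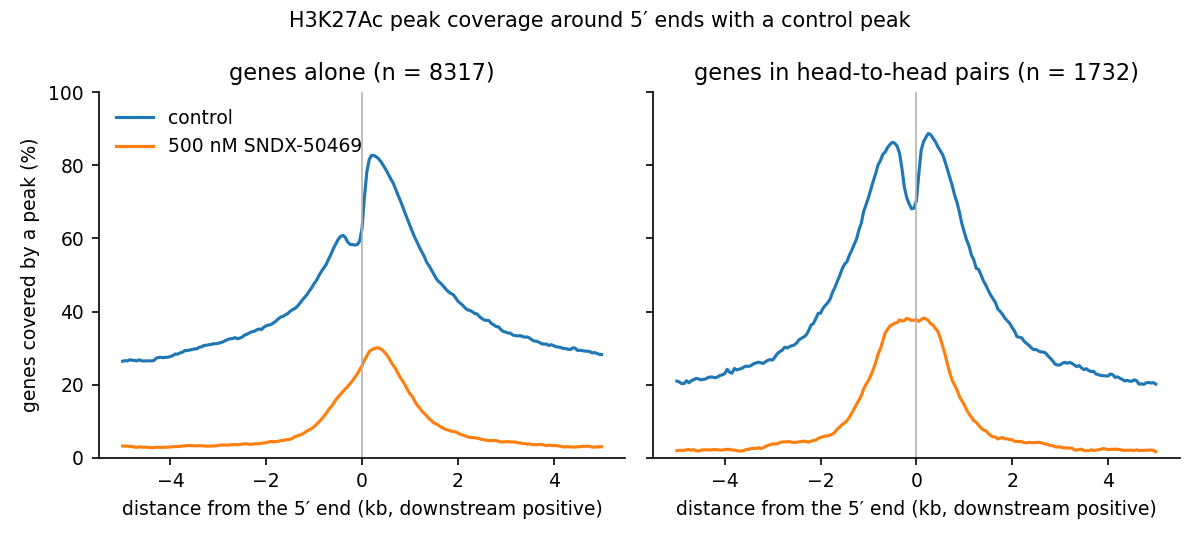
Share of genes covered by an H3K27Ac peak (y axis, percent) at each distance from the annotated 5′ end in kb (x axis, downstream positive), for genes alone (left) and genes in head-to-head pairs (right) that have a control peak in the window. Lines are the control and the SNDX-50469 library. Control coverage of head-to-head genes falls to 68.1% at −100 bp between the maxima on each side, and the treated line is at 37.5% there.

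The covered share of the widest one-gene peaks was highest near the start. In the 1235 one-gene peaks of at least 5000 bp, treated peaks covered 45.3% of the control length within 1 kb of the 5′ end, 29.4% from 1 to 2 kb, 19.1% from 2 to 5 kb, 21.7% from 5 to 10 kb and 27.6% beyond 10 kb. This share, pooled over the peaks, had its minimum between 2 and 5 kb. Only the wider peaks reach beyond 10 kb, where the control length was 1431378 bp, against 4073130 bp from 2 to 5 kb. The set of peaks thus changes with distance, and the shares are not a profile within each peak.

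Head-to-head promoters carried control peaks more often than genes alone. A control peak reached 92.6% of 1871 genes in pairs (91.3 to 93.7%), against 55.4% of 15013 genes with no other 5′ end close by (54.6 to 56.2%). Of those with a control peak, 62.4% (60.1 to 64.7%) and 44.7% (43.6 to 45.8%) also had a treated peak. Both genes of a pair are counted and their windows overlap. A peak at either start can thus count for both genes, so the intervals for genes in pairs are too narrow. Part of these differences is set by this definition. At the level of peaks, 574 of 1078 head-to-head peaks (53.2%, 50.3 to 56.2%) and 4091 of 10993 one-gene peaks (37.2%, 36.3 to 38.1%) were kept. One-gene peaks at the widths of the head-to-head peaks were kept in 46.8% of cases. The intervals of both kinds were apart at 2000 to below 5000 bp, with 80.2% (75.9 to 83.9%) of head-to-head and 68.3% (66.5 to 70.1%) of one-gene peaks. They were also apart at 5000 bp or more, with 93.2% (87.2 to 96.5%) and 84.4% (82.2 to 86.3%) in the same order. They overlapped under 2000 bp, where the shares were 43.0 and 39.7% from 1000 to below 2000 bp. With width and fold both matched, one-gene peaks like the head-to-head ones were kept in 52.1% of cases, next to the 53.2% observed. At 2000 to below 5000 bp alone the matched one-gene share was 74.9%, below the 80.2% observed and below its interval. With both lists held to a −log10 q of at least 5, the direction at these widths turned, to 9.92% of head-to-head against 13% of one-gene peaks, and the shares at all widths were 13.02 and 12.7%.

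The 949 pairs had a median distance of 174 bp between their 5′ ends, and 883 had a control peak. One peak spanned both 5′ ends in 575 of these pairs, with a median width of 2908 bp, and the peak was kept in 76.7%. In the other 308 pairs the widest peak had a median of 1254 bp and 39.3% had a kept peak. Both genes of a pair tended to share their state. A treated peak reached the windows of both genes in 545 pairs, of 1 gene in 8 pairs and of neither in 330 pairs, and since the windows of a pair overlap, this is largely set by the definition. A single peak over both 5′ ends was found in 80.0% of pairs less than 100 bp apart that had a peak, in 63.1% from 100 to below 300 bp and in 54.1% from 300 to 1000 bp. Pairs of 300 to 1000 bp with such a peak kept it in 91.5% of cases, beside 69.9% for pairs less than 100 bp apart, and their peaks were wider, with medians of 3162 and 2482.5 bp.

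Among head-to-head peaks that reached no gene beyond the pair, the widest kept one (30486 bp) belonged to AKR7A2 and SLC66A1. AKR7A2 is an aldo-keto reductase gene and SLC66A1 a lysosomal amino acid transporter gene, yet only 5.69% of the peak was covered after treatment. For FAF1 and CDKN2C, the latter encoding a CDK inhibitor, 19.2% of a 25326 bp peak was covered. MOB3A and IZUMO4 stood out from these, with 81.9% of 20174 bp covered. ASPRV1 and PCBP1, which encodes an RNA-binding protein, had 37.3% of 19146 bp covered, and ELF1 and WBP4, an ETS factor and a spliceosome protein, 24.3% of 14753 bp. At the spacers printed above for GLB1L/STK16 (6427 bp), WARS1/WDR25 (5663 bp) and PSMA2/MRPL32 (2946 bp) no treated peak was listed. Their folds of 4.17, 6.23 and 4.59 lay in the range in which many promoter peaks were kept. Wider pairs without a kept peak were DNAI4 and MIER1 at 9170 bp and PDE6D and COPS7B at 6765 bp. The 8297 bp peak of TFB2M and CNST was not kept either, although a second, narrower peak of that pair was.

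CpG-rich promoters were reached by H3K27Ac peaks more often and were more often still listed after treatment. A promoter was called CpG-rich when the RefSeq sequence from 250 bases before to 50 after the start had at least 50% GC and an observed to expected CG ratio of at least 0.6. The promoter nearest to the 5′ end was found for 15101 of 18119 genes (83.3%), and for 80.5 to 89.6% of the genes in each group compared below. For 13150 of them it started at the 5′ end used here, and for 1233 it lay over 1 kb away. CpG-rich promoters made up 42.2% of the 5668 promoters without a peak (40.9 to 43.5%), 69.6% of the 4650 with a control peak only (68.3 to 70.9%) and 83.7% of the 4730 with a peak in both libraries (82.7 to 84.8%). With only the promoters that start at the 5′ end, the shares were 41.1, 70.6 and 85.1%. The median number of CG dinucleotides in 300 bases was 11, 24 and 27 in the same order.

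This was also seen at matched width. With a widest control peak of 1000 to below 2000 bp, 46.4% of 1900 CpG-rich promoters (44.2 to 48.7%) and 28.5% of 333 others (24.0 to 33.6%) had a treated peak in the window. From 2000 to below 5000 bp the shares were 75.7% (74.0 to 77.2%) and 52.7% (48.5 to 56.8%), and at 5000 bp or more they were 82.6% (80.2 to 84.7%) and 63.1% (59.0 to 67.0%). Under 500 bp, 3.19 and 2.41% had a treated peak, with overlapping intervals. Fold was not matched here. CpG-rich promoters made up 87.9% of the genes in head-to-head pairs and 59.7% of genes alone. Among CpG-rich promoters, 93.2% of 1474 genes in pairs and 70.2% of 7371 genes alone had a control peak. Among the others the shares were 88.6% of 202 genes in pairs and 36.2% of 4972 genes alone. The windows of a pair overlap, so a gene in a pair can be reached by a peak at its partner. ITGAM and IL12B, whose printed promoters held few CG, are examples of CpG-poor promoters with a wide control peak within 1 kb and no treated peak. For IL12B the printed bases lay outside that control peak.

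Among 11 motifs searched, the ETS, YY1 and NRF1 letters followed the same order as CpG richness, as did the GC box, CRE and E-box letters given below. The ETS motif was found in 5.08% of promoters without a peak, 17.2% with a control peak only (16.1 to 18.3%) and 22.6% with peaks in both libraries (21.4 to 23.8%), beside 14.3% of all 15101. For the YY1 motif (AAGATGGC), which names a zinc finger factor common at housekeeping promoters, the shares were 1.22, 3.57 (3.07 to 4.14) and 7.38% (6.67 to 8.16), beside 3.87% of all. The NRF1 motif was present in 1.71, 4.60 (4.04 to 5.24) and 6.79% (6.10 to 7.54), beside 4.19% of all, and NRF1 is a factor of nuclear genes for mitochondrial proteins. Within CpG-rich promoters YY1 letters were found in 4.42% with a control peak only and 8.21% with both, while ETS letters were found in 22.0 and 25.5% and NRF1 letters in 6.33 and 7.80%.

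The TATA box (TATAAA from 40 to 20 bases before the start, on the strand of the gene) was most frequent in promoters without a peak, at 6.37%, against 1.98% with a control peak only (1.62 to 2.42%) and 2.24% with both (1.86 to 2.70%), beside 3.72% of all. The last 2 intervals overlap. The CCAAT box hardly varied, at 34.8, 36.5 and 37.1%, beside 36.0% of all. Letters of myeloid factors were rare in each group. The PU.1 letters (GAGGAAGT) were in 2.22, 2.39 and 2.73%, beside 2.44% of all, with overlapping intervals, and the RUNX letters (TGTGGTT) in 4.31, 3.53 and 2.88%, beside 3.62% of all. The GC box was in 44.1, 65.0 and 70.2%, beside 58.7% of all. Within CpG-rich promoters its order turned, with 81.6% with a control peak only and 77.5% with both. In the order without a peak, control peak only and both, CRE letters (TGACGTCA) were in 1.52, 2.77 and 3.81%, E-box letters (CACGTG) in 5.73, 9.18 and 11.8% and AP-1 letters (TGAGTCA) in 4.15, 3.72 and 2.83%, beside 2.62, 8.71 and 3.602% of all. All motifs other than the TATA box were searched on both strands, and matches of different motifs overlapped in 1.40% of promoters, where each was counted. Head-to-head genes with a control peak held ETS letters in 29.9% of promoters (27.7 to 32.3%), against 17.9% of genes alone with one (17.0 to 18.8%). The sequences of a close pair overlap, so 1 match can count for both genes and the first interval is too narrow. A match is a run of letters and not a measured binding site.

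**Figure D3:**
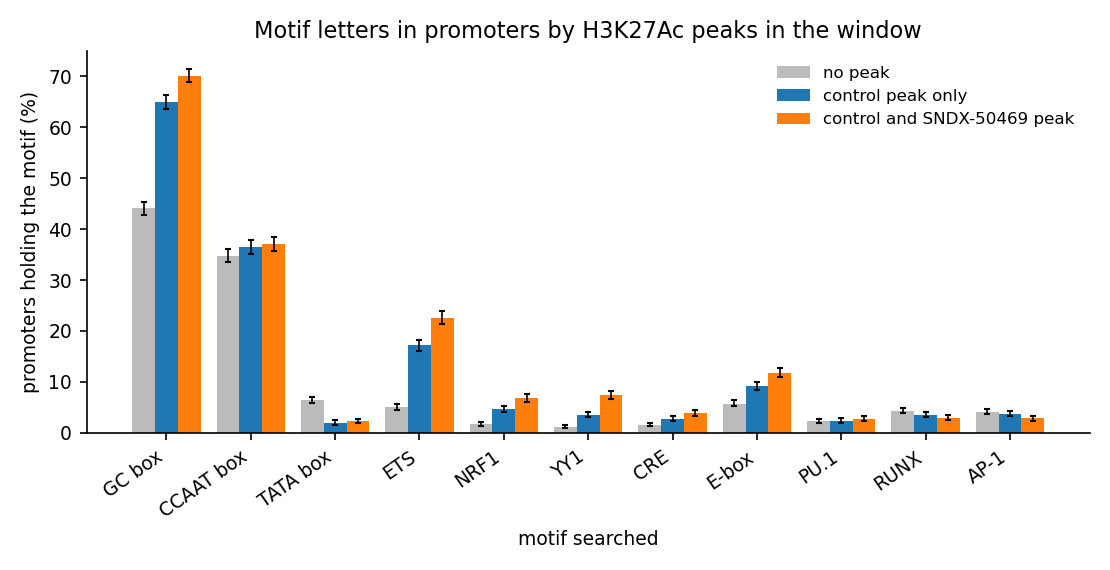
Share of promoters (y axis, percent) that hold the letters of each motif (x axis), for genes without a peak in the window, with a control peak only and with a control and an SNDX-50469 peak. Bars are shares with Wilson 95% intervals. YY1 letters go from 1.22 to 3.57 and 7.38%, and TATA box letters from 6.37 to 1.98 and 2.24%.

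Gene classes ranged from nearly every promoter kept to none. Among housekeeping classes, the cytosolic ribosomal protein genes had a control peak at 78 of 79 promoters and a treated peak at 73 of these. Of their 94 promoter peaks 77 were kept, 81.9% (72.9 to 88.4%), beside 59.6% of all promoter peaks at the same widths and 73.8% at the same width and fold. The widest kept one spanned MED22 and RPL7A (12441 bp, 36.6% covered), and the widest not kept was at RPS27L (3000 bp). Splicing factor genes kept 59 of 80 peaks, 73.8% (63.2 to 82.1%), beside 54.9% at the same widths and 67.7% at the same width and fold, and 49.2% of their peak length was covered. Translation factor genes kept 44 of 69 (63.8%, beside 50.7% at the same widths) and aminoacyl-tRNA synthetase genes 25 of 42 (59.5%, beside 46.7%). The interval of each of these classes, the cytosolic ribosomal protein and splicing factor genes included, holds the value at the same width and fold.

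Mitochondrial and proteasome genes were closer to promoter peaks in general. Mitochondrial ribosomal protein genes kept 47 of 91 (51.6%, beside 46.7% at the same widths), respiratory chain genes 49 of 87 (56.3%, beside 46.9%), proteasome genes 26 of 48 (54.2%, beside 50.5%) and RNA polymerase II and Mediator genes 25 of 47 (53.2%, beside 43.8%). All 4 intervals hold the share at the same width and at the same width and fold. The widest kept proteasome peak was shared by PSMA1 and PDE3B (5102 bp, 53.7% covered), and the widest not kept by PSMA2 and MRPL32, whose spacer is printed above. DNA replication genes kept 25 of 44 (56.8%, beside 45.1%), with MCM3, a subunit of the replicative helicase, at 21419 bp and 22.5% covered. ZNF zinc finger genes kept 160 of 389, 41.1% (36.4 to 46.1%), beside 34.8% at the same widths and 37.01% at the same width and fold. The latter value lies inside the interval. ZNF595 had the widest kept peak of the ZNF genes, 26782 bp with 85.6% covered.

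Replication-dependent histone genes stood furthest above promoter peaks of like width. They kept 36 of 43 peaks, 83.7% (70.0 to 91.9%), beside 59.1% at the same widths and 62.5% at the same width and fold, and 65.8% of their peak length was covered. The peak over H2BC11, H2AC11 and H4C9 was 7325 bp with 99.6% covered and that from H2BC13 to H2BC14 was 5866 bp with 99.5% covered. The widest, over 8 histone genes from H2BC6 to H2AC8, was 32225 bp with 70.5% covered. Their promoters had another make-up than the other classes that were mostly kept. Only 10 of 64 histone promoters (15.6%) were CpG-rich, against 56 of 65 (86.2%) of cytosolic ribosomal protein and 56 of 64 (87.5%) of splicing factor promoters. A TATA box was found in 34 of the 64 (53.1%), as in the H4C12 sequence above, and a CCAAT box in 54 (84.4%). The histone genes are near-identical copies that lie in clusters, so how reads were shared among copies was not examined and a peak can serve several genes. Of these genes 27 of 69 were in head-to-head pairs. On chromosome 6, which holds most of them, 54.6% of all promoter peaks were kept, beside 48.2% at the same widths.

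**Figure D4:**
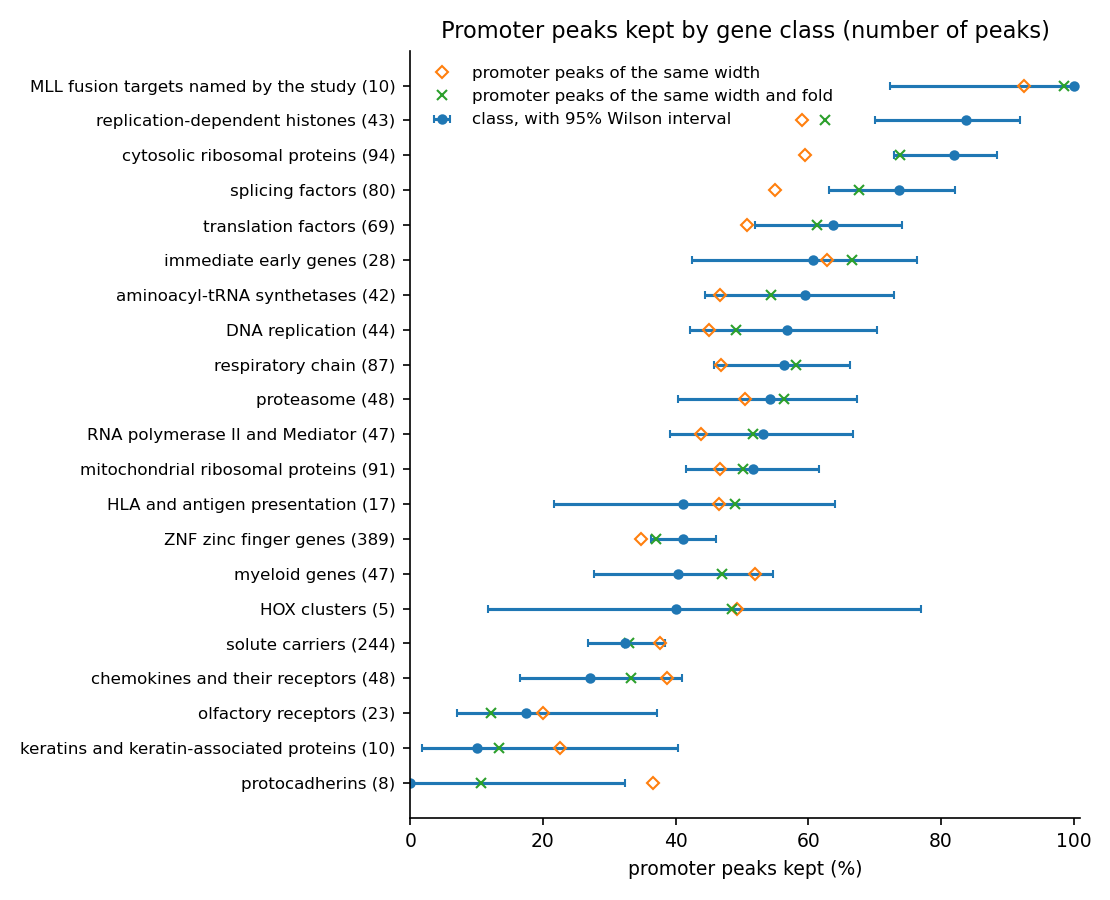
Share of promoter peaks kept (x axis, percent) in 21 gene classes, with the number of peaks of each class in brackets. Circles are the class with its Wilson 95% interval, diamonds are all promoter peaks of the same width and crosses those of the same width and fold. Histone genes lie at 83.7% with a cross at 62.5%, and myeloid genes at 40.4% with a cross at 46.9%.

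Genes of the leukemia and of myeloid differentiation gave a mixed picture. All 10 promoter peaks of MLL-FP targets named by the study were kept, beside 92.5% of promoter peaks at the same widths and 98.6% at the same width and fold. The list was chosen by the study from the same cell model and is not independent evidence. These peaks were very wide, with a median of 18526 bp, and 38.2% of their length was covered. MEF2C had no control peak within 1 kb of its outermost annotated 5′ end, the only position used, and its other start sites were not examined. The paper lists MEF2C, CDK6, JMJD1C, LAMP5, MEIS1, PBX3 and SENP6 among loci where H3K27Ac peak density decreased after SNDX-50469 in MOLM13 cells. A kept peak only shares 1 bp or more with a treated peak, so kept does not mean that the density was unchanged. Myeloid genes kept 19 of 47 peaks, 40.4% (27.6 to 54.7%), beside 51.9% at the same widths and 46.9% at the same width and fold. CEBPA, the granulocyte master factor, had the second widest of all promoter peaks, 57889 bp with 69.5% covered by 19 treated peaks. Immediate early genes kept 17 of 28 (60.7%, beside 62.8% at the same widths), with FOS at 28490 bp and 30.0% covered and BTG2 at 7240 bp not kept.

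HOXA9 and MYB, the homeobox and the transcription factor gene, were covered over most of their promoter peaks, with 81.9% of 12920 bp and 64.8% of 27181 bp. LAMP5, a lysosome-associated membrane protein gene, had 48.6% of 53620 bp covered. FLT3, a receptor tyrosine kinase gene, and BCL2, the anti-apoptotic gene, had 36.7% of 18811 bp and 36.1% of 7959 bp covered. Less was covered in PBX3 (25.1% of 14975 bp), SENP6 (19.8% of 18697 bp), CDK6 (16.3% of 19597 bp) and JMJD1C (10.0% of 18355 bp). The 18.2% of the MEIS1 peak that was covered lay outside its 2 kb window, in which no treated peak was listed. The same held for C10orf105, the widest of all promoter peaks, with 30.5% of 58720 bp covered and none in the window.

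The widest one-gene peak that was not kept belonged to ITGB2, the gene of the leukocyte integrin beta chain, at 15869 bp, with a fold of 6.27. MYBPHL (15739 bp), SAMD11 (15516 bp), DYSF (15453 bp) and IL12B (15257 bp) came next. ITGAM and CD86, with peaks of 574 and 16203 bp for the latter, and LYZ, with 3 peaks of 351, 1171 and 919 bp, had no kept peak. In the same order, their control folds were 4.16 for ITGAM, 2.94 and 5.62 for CD86 and 3.62, 4.69 and 3.07 for LYZ. The paper reports that mRNA of ITGAM, CD86 and LYZ rose in MOLM13 cells after SNDX-50469, and mRNA was not examined here. ITGAX, the CD11c gene, had 10.8% of 12568 bp covered, and EGR1, an immediate early gene tied to monocytic differentiation, 26.2% of 3301 bp.

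**Figure D5:**
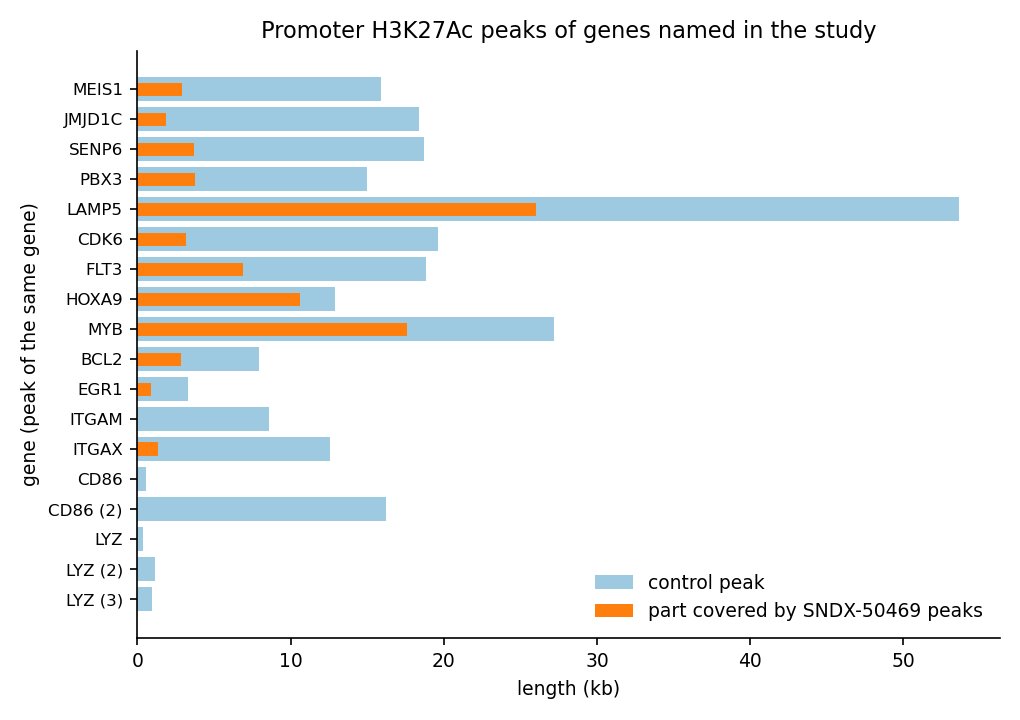
Length of the promoter H3K27Ac peak in control (light bars, kb) and the part of it covered by SNDX-50469 peaks (dark bars, kb) for genes named in the study, with a bar for each peak where a gene has several. MYB has 17621 of 27181 bp covered and ITGAM, CD86 and LYZ have none.

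The kept shares of the remaining regulated and tissue-restricted classes lay near those of promoter peaks of the same width and fold, within their intervals. Chemokine and chemokine receptor genes kept 13 of 48, 27.1% (16.6 to 41.0%), beside 38.7% at the same widths and 33.3% at the same width and fold. Of the windows of 36 such genes with a control peak 5 had a treated one, beside 49.1% of all windows with a control peak. The peak over CCR1 and CCR3 was 36156 bp wide with 2.37% covered. HLA and antigen presentation genes kept 7 of 17 (41.2%, beside 46.5% at the same widths and 49.01% at the same width and fold). Solute carrier genes kept 79 of 244 (32.4%, beside 37.7 and 32.9% in the same order). HOX cluster genes had 5 promoter peaks at 39 genes, of which HOXA9 was the widest kept and HOXA13 (1880 bp) the widest not kept. A control peak reached 20 of 386 olfactory receptor genes, 7 of 149 keratin genes and 5 of 63 protocadherin genes, beside 60.8% of all genes. Their peaks were kept in 4 of 23, 1 of 10 and 0 of 8 cases. At the same width and fold 12.1, 13.4 and 10.6% of promoter peaks were kept, and at the same widths 20.05, 22.6 and 36.5%. The 0 of 8 allows a share of up to 32.4% by the Wilson interval. OR52W1, which shared a peak of 11316 bp with C11orf42, and KRT80, with 17612 bp, had the widest kept peaks of the first 2 classes, and the KRT80 window held no treated peak.

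The share kept ranged from 31.5% on chromosome 22 (26.9 to 36.3%) to 54.6% on chromosome 6 (50.9 to 58.2%) and 54.2% on chromosome 13 (47.9 to 60.5%). Promoter peaks of the same widths were kept in 34.5, 48.2 and 46.4% of cases, so these chromosomes also differed in peak width. The other chromosomes used lay between 33.3 and 47.2%. Outside the windows the order was not the same, with 3.88% on chromosome 22, 7.42% on chromosome 6, 6.27% on chromosome 13 and 8.25% on chromosome 19.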

How the data were processed

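H3K27Ac was profiled by ChIPmentation in MOLM13 cells, in 1 control and 1 SNDX-50469 library. The libraries of input DNA were not analysed here. Per the submitters' processing notes, Trim Galore 0.6.5, Bowtie2 2.3.4.2, Picard 2.9.0 and MACS2 2.1.2 were used with GRCh38, while the supplementary methods of the paper name TopHat2 and UCSC hg38. Cutoffs and the use of an input are not given in the sources used here. For each library the authors deposited its own list of broad peaks, with a fold over background (a ratio), −log10 p and −log10 q values and a score, called without pooling. The deposited score was not used.

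Python 3.11.15, numpy 2.4.6, pandas 2.3.3, scipy 1.17.1 and matplotlib 3.10.9 were used. The 5′ end is the outermost end of a protein-coding gene in RefSeq GRCh38.p14. Strand was known for 18119 of 18411 genes, for 3018 of them by symbol from a GENCODE annotation of another build that gave no coordinate. No filter on low values was applied, and all 12727 promoter peaks entered. Overlaps were checked on simulated peaks. A share at the same width is the share kept of promoter peaks in the same of 20 width groups, and at the same width and fold in the same of 10 groups of each. Head-to-head peaks were set beside one-gene peaks alone in the same of 10 width groups, without or with 10 fold groups. The RNA polymerase II and Mediator, myeloid, chemokine, HOX and keratin classes had promoter sequences for fewer than 80% of their genes, so their composition is not given.

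The members, gene classes, markers and motifs were chosen with earlier results of these data known. Genes named are those the study names and those of the widest one-gene and head-to-head peaks kept and not kept. Head-to-head peaks that reached a gene beyond the pair were left out of that choice. Also named are the peaks of at least 2 kb covered most fully, and the widest kept and not kept of each class. Some genes that this rule names are not reported here. The alternatives tried were other windows, overlaps, thresholds, joining of peaks and sets of chromosomes.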

Additional observations from a re-analysis of the deposited data

How the results depend on the processing

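No replicate could be left out. No paired analysis was possible because only 1 control and 1 treated library were compared. Under 10 alternatives, 2 of them chosen after seeing the data, promoter peaks were kept more often than peaks outside the windows in 8 of the 8 that give both shares, and head-to-head peaks more often than one-gene peaks in 10 of 10. From 2000 to below 5000 bp this order held in 9 of 10, and with both lists at a −log10 q of at least 5 it was 9.92 against 13%. These counts rest on shares not matched for width and fold, and all alternatives use the same libraries. With both matched in the main setting, 53.2% of head-to-head and 52.1% of one-gene peaks were kept. At a −log10 q of at least 5 the intervals of the 2 kinds over all widths overlap. The sizes moved with the alternative, given here for promoter, one-gene and head-to-head peaks kept and the median width. With windows of 0.5 kb they were 46.3, 43.5 and 57.6% and 1668 bp, and with 2 kb they were 29.2, 26.9 and 39.4% and 835 bp. With both lists at a −log10 q of at least 5 they were 13.2, 12.7 and 13.02% and 2930.5 bp, with 6.38% kept outside the windows. With the control list trimmed to as many peaks as the treated list they were 61.6, 59.9 and 63.9% and 2307 bp, with 23.2% kept outside the windows. With control peaks less than 1 kb apart joined they were 52.9, 48.7 and 65.9% and 3931 bp. With control peaks at or above the smallest −log10 p of the treated list, added later, they were 58.3, 56.5 and 61.4% and 2187 bp, with 17.8% kept outside the windows. Where treated peaks had to cover at least 50% of the control peak, the 3 shares were 12.1, 11 and 17.3%. Without chromosomes 5, 6 and 13 promoter peaks were kept in 38.8% and one-gene peaks in 36.1%, and the median width was 1322 bp. With a treated peak required inside the window, added later, the shares were 36.99% for promoter and 33.9% for one-gene peaks. Promoter peaks of at least 5 kb were kept in 17.0% with 50% coverage, 25.3% at a −log10 q of at least 5, 78.2% after joining and 72.6% with the treated peak inside the window. Chromosome X moved no value beyond its interval. The cause of these changes was not tested, apart from the stricter rules, which by construction count fewer peaks. The files give no read totals, so depth sets no limit that could be stated here.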
